A study of Mus musculus with 32 samples.

Results

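For this comparison, 9 symbols of long non-coding RNAs were taken from the RNA-seq tables of this study and compared between the 2 libraries: 6 nuclear-retained RNAs (Malat1, Neat1, Tug1, Miat, Pvt1 and Dleu2) and 3 host genes of small nucleolar RNAs (Gas5, Snhg1 and Snhg3). The 9 members were chosen by name, each matched exactly 1 symbol in both libraries, and they are 9 of 24028 symbols listed. All 9 passed the filter of a mean normalized FPKM of at least 0.1, as did 14835 symbols in all. The study asked how Polycomb shapes DNA methylation in mouse embryonic stem cells (mESCs). Of its 32 samples, the 2 RNA-seq libraries were used here, 1 from WT mESCs and 1 from mESCs labelled Eed-/-. Eed encodes the PRC2 subunit that reads methylated H3K27. The labels give TT2 as the line of both libraries, and both cultures were grown without feeders on gelatin in serum with LIF. Eed-/- samples of other assays carry another line name in the labels, and whether the RNA-seq cells are 1 clone is not given in the sources used here.

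Nuclear-retained long RNAs stay at or near the chromatin or in nuclear bodies: Malat1 gathers in speckles, where splicing factors are stored, and the long form of Neat1 is the scaffold around which paraspeckle proteins assemble. A snoRNA host gene is transcribed and spliced like an mRNA, but its introns are trimmed to snoRNAs, and the spliced exons are often short-lived because cytoplasmic nonsense-mediated decay removes them. Box C/D snoRNAs guide ribose methylation of ribosomal RNA and box H/ACA snoRNAs guide pseudouridylation or, in a few cases, ribosomal RNA cleavage, so host transcription belongs to ribosome production.

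Between the libraries the nuclear-retained RNAs differed little and the hosts differed more, in both directions. No nuclear-retained RNA differed by 2-fold on the log2 scale used here, and 5 of 6 were higher in the library labelled Eed-/-. Gas5 and Snhg1 were lower in that library, with FPKM of 93.5 (WT) against 34.0 and of 135.5 (WT) against 59.2, while Snhg3 was higher, at 12.0 against 65.2. FPKM divides the fragments of a gene by its transcript length and by the mapped reads, so levels of different genes are compared per length. A change below is the difference in log2(FPKM + 1), library labelled Eed-/- minus WT, after quantile normalization of both libraries, and this scale understates the change of low genes. With 1 library per genotype there is no replicate check and no test of any change. Where 2 FPKM are given as "(WT) against", the second is that of the library labelled Eed-/-. Intervals at 95% are exact and cover counting error only.

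The libraries themselves set the limits. Steps between low FPKM values gave depths of about 7210000 fragments for WT and 6360000 for the library labelled Eed-/-. Small non-coding RNAs, 1202 symbols, made up 97.6% of the WT total FPKM and 94.7% of that of the second library, so totals say nothing of depth. Eed itself, the labelled target, stood at an FPKM of 63.0 (WT) against 70.9, so its transcript was not lower under the knockout label. Protein was not measured in these files. For its Eed-/- mESCs the study reports that loss of Eed was checked through H3K27me3, by western blot and by ChIP-seq. Its ChIP-seq was not analysed here. All 10 mESC markers were detected in both libraries, with a summed FPKM of 1499 (WT) and 1716. Of markers of other cell types, the summed FPKM of 6 trophoblast markers was 41.8 and 11.9, that of 6 primitive endoderm markers 1.20 and 4.00, and that of 7 fibroblast markers 1.73 and 7.22, each in WT and then in the library labelled Eed-/-. Single genes carried the trophoblast and fibroblast sums: Tfap2c was at 39.8 (WT) against 9.21 and Thy1 at 0.976 against 6.97, while the other members of these lists were under 2 in both libraries and differed in both directions. The sum of 5 neural markers was 105 and 86.8, and that of 4 mesoderm markers 1.74 and 1.32. Their part in the results was not tested. In bulk RNA, fewer cells of a type and less RNA per cell cannot be told apart.

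The sequences that set these RNAs apart are shown first. Malat1 and Neat1 end not in an ordinary poly(A) tail but in a triple helix in which U-rich stretches fold over a genomically encoded A-rich tract. The stretches of 100 bases that close with this tract, from the longest annotated transcripts Malat1-001 (chr19:5795982-5796081, minus strand, NCBIM37, the assembly also called mm9) and Neat1-001 (chr19:5824708-5824807, minus strand), both lie in an exon, and capitals mark the U-rich letters, written as T, and the A-rich letters.
Malat1: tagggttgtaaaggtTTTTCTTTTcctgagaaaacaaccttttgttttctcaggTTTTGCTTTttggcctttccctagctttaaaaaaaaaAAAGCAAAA
Neat1: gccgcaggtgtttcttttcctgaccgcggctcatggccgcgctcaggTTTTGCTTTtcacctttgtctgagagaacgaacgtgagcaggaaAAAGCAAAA
The A-rich letters AAAGCAAAA, searched on the transcript strand, occur 1 time each in the longest transcripts of Malat1, Neat1 and Miat and in none of the other 6 members. The U-rich letters searched were TTTTCTTTT and TTTTGCTTT, of which the former occurs in Malat1, Neat1, Miat, Dleu2 and Gas5 and the latter in Malat1, Neat1 and Snhg1. The TTTTCTTTT of Neat1 lies outside the stretch shown, which holds only TTTTGCTTT of the U-rich letters searched. For comparison, 0.405% of 32851 RefSeq start windows of 300 bases hold AAAGCAAAA, 1.20% TTTTCTTTT and 0.432% TTTTGCTTT on the gene's strand. The transcripts searched are longer, from 581 bases for Snhg3 to 20771 for Neat1. These shares therefore do not give how often the letters occur in a whole transcript. A match is a description of letters and not a site.

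The hosts carry their snoRNAs inside the gene. GENCODE places 9 snoRNAs of 60 to 84 bases within Gas5, 8 of 65 to 126 bases within Snhg1 and 2 of 205 bases within Snhg3. All 9 in Gas5 and all 8 in Snhg1 lie over an exon of some annotated transcript of the host, so fragments of snoRNA and host can share a position, and their part in the host values was not tested. Gas5 and Snhg1 hold box C/D snoRNAs and Snhg3 holds both copies of the H/ACA snoRNA Snora73, also called U17. One snoRNA of each C/D host is shown because it is the one with a value of its own in the libraries, and the Snora73 copies are shown because their host went the other way. Snord47 lies at chr1:162968213-162968289 (plus strand), Snord22 at chr19:8800356-8800481 (plus), Snora73a at chr4:131908690-131908894 (minus) and Snora73b at chr4:131908237-131908441 (minus), all on NCBIM37, and capitals mark the C box letters TGATGA, the D box letters CTGA in the last 15 bases, or the ACA that lies 3 bases before the end.
Snord47: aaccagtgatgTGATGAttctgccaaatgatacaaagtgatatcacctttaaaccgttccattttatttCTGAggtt
Snord22: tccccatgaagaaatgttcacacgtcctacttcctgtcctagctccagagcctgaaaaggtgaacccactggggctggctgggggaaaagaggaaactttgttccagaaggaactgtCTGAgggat
Snora73a: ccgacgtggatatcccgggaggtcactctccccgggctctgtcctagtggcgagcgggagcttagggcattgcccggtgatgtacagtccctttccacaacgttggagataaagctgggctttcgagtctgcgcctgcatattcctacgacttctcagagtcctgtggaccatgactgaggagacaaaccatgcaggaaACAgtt
Snora73b: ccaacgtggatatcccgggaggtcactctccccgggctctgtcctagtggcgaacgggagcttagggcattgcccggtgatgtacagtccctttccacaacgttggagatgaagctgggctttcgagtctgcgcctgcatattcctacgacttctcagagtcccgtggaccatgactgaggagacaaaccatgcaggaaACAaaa
The Snora73 copies share 198 of 205 bases (96.6%). TGATGA was not found in Snord22. Over all 1552 annotated snoRNAs, on their own strand, 23.6% hold TGATGA, 28.9% hold CTGA in the last 15 bases and 18.2% hold ACA at that position.

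Malat1 was the most abundant member in both libraries. WT had an FPKM of 279 and the library labelled Eed-/- one of 299, a level above 98.8% and 99.0% of tested genes. These values lay close together: the ratio was 1.07 (0.957 to 1.21), and the change after normalization was 0.32. Malat1 (chr19:5795690-5802671, minus strand) has a longest annotated transcript of 1 exon, and Gm20417 overlaps it on the opposite strand. The libraries were strand-specific, but whether the counting used strand is not given in the sources used here. Neat1, on the same chromosome (chr19:5824708-5845478, minus), was at an FPKM of 6.60 (WT) against 9.62, a ratio of 1.46 (0.957 to 2.28) and a change of 0.62. The intervals of both ratios include 1, but they rest on the shortest transcript of at least 400 bases. That length gives Malat1 about 612 fragments for WT and 580 for the library labelled Eed-/-, and Neat1 40.5 and 52.0. The longest transcript gives Malat1 13660 and 12938, and Neat1 980 and 1259. Intervals on the longest transcripts would be narrower and were not computed, so a difference beyond counting error is not excluded. The level of Malat1 was 42.2 times that of Neat1 in the WT library and 31.1 times in the other. The files give 1 value per symbol, so the short and long forms of Neat1, of which the long form builds paraspeckles, cannot be told apart.

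Tug1, a broadly expressed nuclear RNA (chr11:3539797-3548815, minus), was measured at an FPKM of 15.3 (WT) against 19.4. The ratio of 1.27 (1.09 to 1.47) was beyond counting error, and the change was 0.49. Miat, also called Gomafu and known from neuronal nuclei (chr5:112642248-112657968, minus), was near the floor in both libraries, with FPKM of 0.179 and 0.272, or about 11.05 and 14.9 fragments. Its change of 0.11 and its ratio of 1.53 (0.663 to 3.72) show no difference detectable at this depth.

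Pvt1 and Dleu2 are nuclear transcripts that also carry microRNAs. Pvt1, downstream of Myc (chr15:61869542-62209651, plus), was the only nuclear-retained member that was lower in the library labelled Eed-/-, with FPKM of 4.35 (WT) against 2.62. WT was higher by a ratio of 1.66 (1.13 to 2.43), and the change was -0.48. Dleu2, host of Mir15a and Mir16-1 (chr14:62238318-62301162, minus), was at an FPKM of 0.273 (WT) against 0.716. These values stand for 1.93 and 4.45 fragments if the shortest transcript of at least 400 bases is assumed and for 6.61 and 15.3 with the longest, and the ratio of 2.62 has an interval of 0.325 to 25.1. The change of Dleu2 was 0.44, and no difference was detectable at this depth. Mir15a and Mir16-1 are listed at 0 in both libraries.

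**Figure D1:**
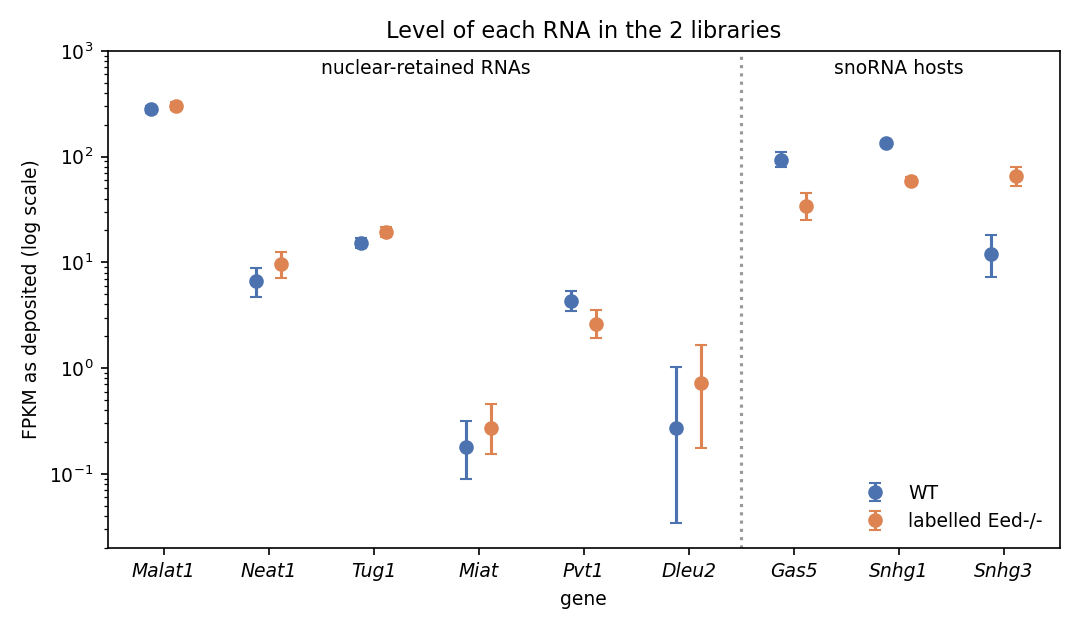
Deposited FPKM (log scale) of the 9 members in the WT library and the library labelled Eed-/-, with 95% counting intervals computed from the shortest annotated transcript of at least 400 bases. The intervals of the 2 libraries are apart for Gas5, Snhg1, Snhg3 and Tug1 and overlap for Malat1, Neat1, Miat, Pvt1 and Dleu2.

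Gas5, named for its accumulation in growth-arrested cells (chr1:162964553-162968670, plus), was lower in the library labelled Eed-/-. Its FPKM was 34.0 there against 93.5 in WT cells, the WT level being 2.75 times higher (1.98 to 3.90). The change of -1.23 passed the 2-fold size rule, and 2.23% of tested genes had a change this low or lower. Genes of chromosome 1 as a whole were lower in that library, with a median change of -0.29 over 752 tested genes, and the change of Gas5 relative to this median was -0.94, just short of 2-fold.

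Snhg1 (chr19:8797986-8800932, plus) was the second most abundant member in WT. Its FPKM was 59.2 in the library labelled Eed-/- against 135.5 in WT cells, a ratio of WT over the other of 2.29 (2.11 to 2.48), and it had the most fragments of the hosts, about 2109 and 814. The change after normalization was -0.93, just under the size rule, and it passed the rule on the FPKM as deposited (-1.18) and after median-ratio scaling (-1.02). Its chromosome had a median change of -0.01, and 4.77% of tested genes had a change this low or lower.

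Snhg3 (chr4:131903929-131909601, minus) differed in the other direction. Its FPKM was 65.2 in the library labelled Eed-/- against 12.0 in WT cells, a ratio of 5.41 (3.42 to 9.28). The change was 2.53, the largest of the 9 members, and 0.236% of tested genes had a higher one. In WT, Gas5 stood at 7.77 times and Snhg1 at 11.3 times the level of Snhg3, and in the library labelled Eed-/- these ratios were 0.522 and 0.909, so that Snhg3 was the most abundant host there. The value of Snhg3 is uncertain in more than 1 respect. Its annotated transcripts are short, at 332 to 581 bases. The WT value stands for about 21.4 fragments with the shortest transcript of at least 400 bases and 34.8 with the longest. The exons of Snhg3 overlap those of Rcc1, the exchange factor of the GTPase Ran, on the same strand. Of the 2 Snora73 copies, 1 lies over an annotated exon of Snhg3. Neither copy was found under its own symbol. Rcc1 was at an FPKM of 93.5 (WT) against 55.8, a change of -0.50, against the direction of Snhg3. How the authors' counting divided fragments between Rcc1, Snhg3 and the snoRNAs was not tested.

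**Figure D2:**
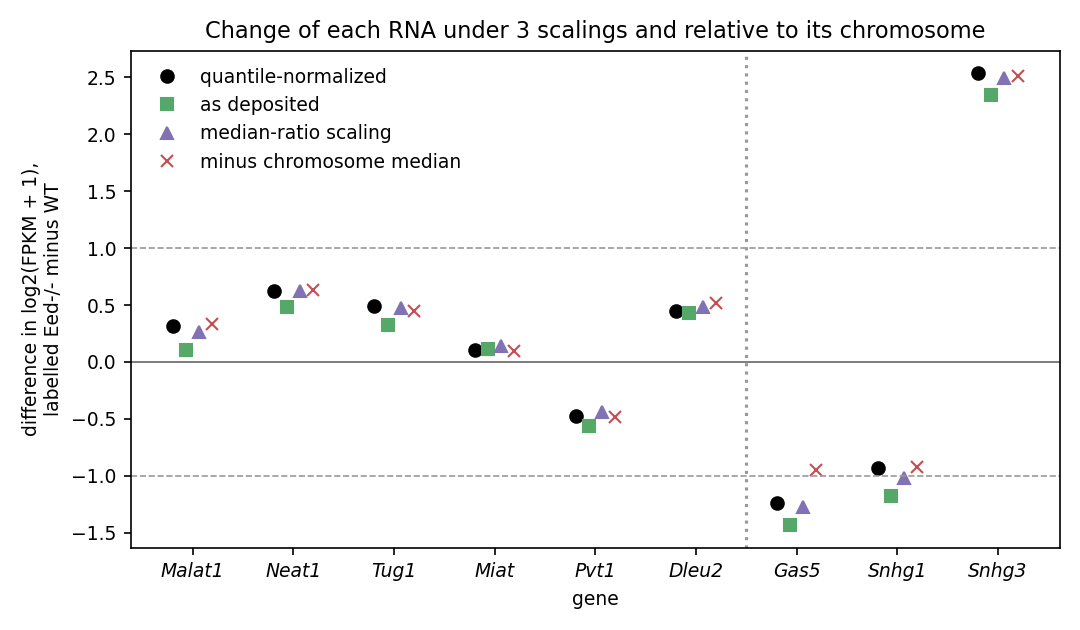
Difference in log2(FPKM + 1), library labelled Eed-/- minus WT, of the 9 members after quantile normalization, as deposited, after median-ratio scaling and relative to the median of the chromosome; dashed lines mark 2-fold. Each member keeps its side of 0 in all 4 versions, and Gas5 and Snhg1 lie on either side of the lower 2-fold line.

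Set side by side, the median change of the 6 nuclear-retained RNAs was 0.38, with a range of -0.48 to 0.62, and the median of the 3 hosts was -0.93, with a range of -1.23 to 2.53. The medians differed by 1.31, less than the counting half-width of 1.77 (log2) that the members in the middle of each class give, of which Dleu2 is 1. Without Pvt1 and Dleu2, a planned version, the difference was 1.34 with a half-width of 0.31. Without Miat and Dleu2 both values were the same, but that version was chosen after seeing the data. The half-width is smaller in these versions because Dleu2 is no longer in the middle. Each half-width comes from FPKM ratios without the added 1 and covers only the counting error of the middle members. The spread between members, such as the hosts' range of -1.23 to 2.53, is not in it, so it does not bound the class difference. The median over all tested genes was 0.01. Of the nuclear-retained RNAs 0 of 6 passed 2-fold. Of the hosts 1 of 3 passed it upward and 1 of 3 downward. Over all tested genes, 564 (3.8%) passed 2-fold upward and 590 (3.98%) downward, that is 1154 (7.78%) in either direction. Among 4957 genes whose mean FPKM reached 10, to which 5 of the 9 members belong, 356 (7.18%) passed in either direction. The 3 hosts lie on both sides of 0, so their median is the value of Snhg1 and does not stand for Snhg3. Summed FPKM was 305 (WT) against 332 for the nuclear-retained RNAs, of which Malat1 is most, and 241 and 158 for the hosts. The level of Malat1 stood at 2.06 times that of Snhg1 in WT and at 5.05 times in the other library.

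The snoRNAs gave little to set beside their hosts. Of 20 symbols of snoRNAs known from the 3 hosts, 2 were found under their own symbol. Snord22, within Snhg1, was at an FPKM of 963 (WT) against 995, a change of 0.29, while its host was lower. Snord47, within Gas5, was listed at 0 for WT and at 241317 for the library labelled Eed-/-, again with its host lower. No fold is given against a value of 0. The fragments selected for sequencing were longer than Snord47, and the part of this in its values was not tested.

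Other genes that host snoRNAs showed neither the lower levels of Gas5 and Snhg1 nor the higher level of Snhg3 as a group. Of 17 other non-coding hosts 16 were tested, with a median change of 0.10. None was 2-fold higher and 1 was 2-fold lower, Snhg14, whose FPKM was 11.9 (WT) against 2.69, a change of -1.70. Snhg5 and Snhg6, the most abundant of this list, had changes of 0.56 and -0.23. Of 12 protein-coding hosts, with a median of -0.03, 1 was 2-fold lower: Eif4a1, an RNA helicase of translation initiation, with a change of -1.30. The 13 snoRNP proteins, which bind the mature snoRNAs, had a median of 0.11 and none passed 2-fold. The 10 factors of nonsense-mediated decay had a median of -0.08, with changes from -0.77 to 0.85, and none passed 2-fold.

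Proteins of the nuclear bodies were compared in the same way. The 14 paraspeckle proteins had a median change of 0.03. Sfpq and Hnrnpk, abundant paraspeckle proteins, had changes of -0.30 and -0.15. The 14 speckle proteins had a median of -0.10 and none passed 2-fold. Of 20 other long non-coding RNAs 14 were tested, with a median of 0.05. Xist and Tsix, the RNAs of X inactivation, were 2-fold higher but low, with WT FPKM of 0.613 and 0.559 against 2.60 and 2.11. Genes of chromosome X had a median change of 0.46 over 518 tested genes, and relative to it Xist and Tsix were at 0.74 and 0.58, short of 2-fold. H19, an imprinted RNA, was 2-fold lower, at 68.7 (WT) against 18.2. Of the stable small non-coding RNAs 3 of 7 were tested and Rpph1, the RNA of RNase P, was 2-fold lower, with a change of -1.90.

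**Figure D3:**
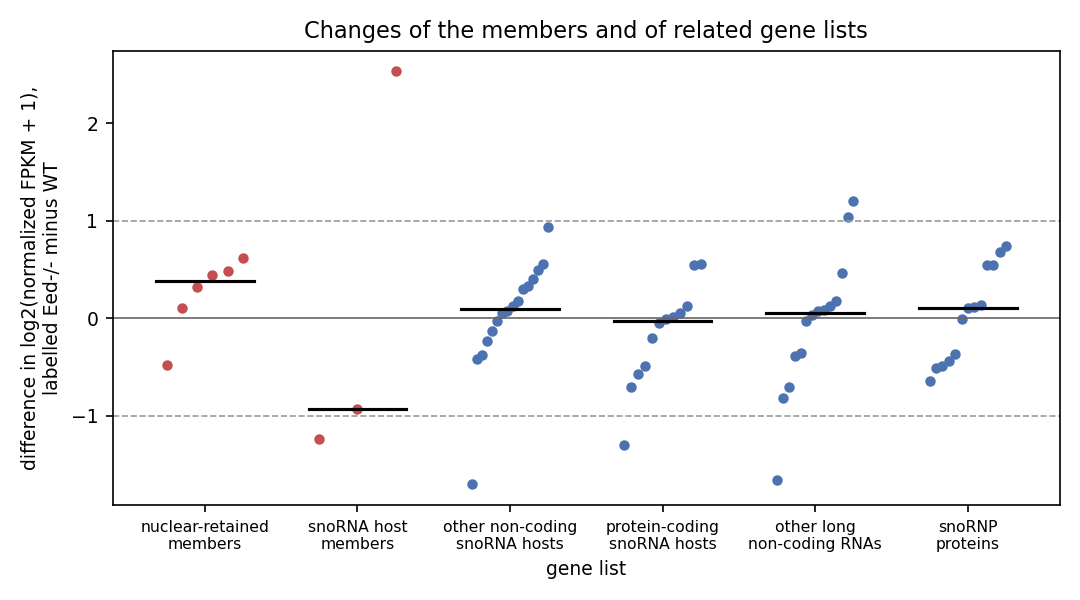
Difference in log2(normalized FPKM + 1), library labelled Eed-/- minus WT, of each tested gene (points, ordered by value) in the 2 member classes and 4 related lists, with the list median (bar) and 2-fold lines (dashed). Snhg3 at 2.53 lies above every other point and Gas5 at -1.23 near the low end of the other hosts.

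The neighbours of the members were read next. Zbtb37, which overlaps Gas5 on the opposite strand, had a change of -0.33, and Serpinc1, with an FPKM under 1 in both libraries, one of 0.02. Slc3a2, the heavy chain of an amino acid transporter, starts 127 bases from the start of Snhg1 on the opposite strand. Its FPKM was 123 (WT) against 56.9, a change of -0.85, close to that of Snhg1. Wdr74, on the other side of Snhg1, had a change of -0.30. Beside Snhg3, Phactr4 was at an FPKM of 1.51 (WT) against 3.15, a change of 0.78, and Trnau1ap had a change of 0.12.

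**Figure D4:**
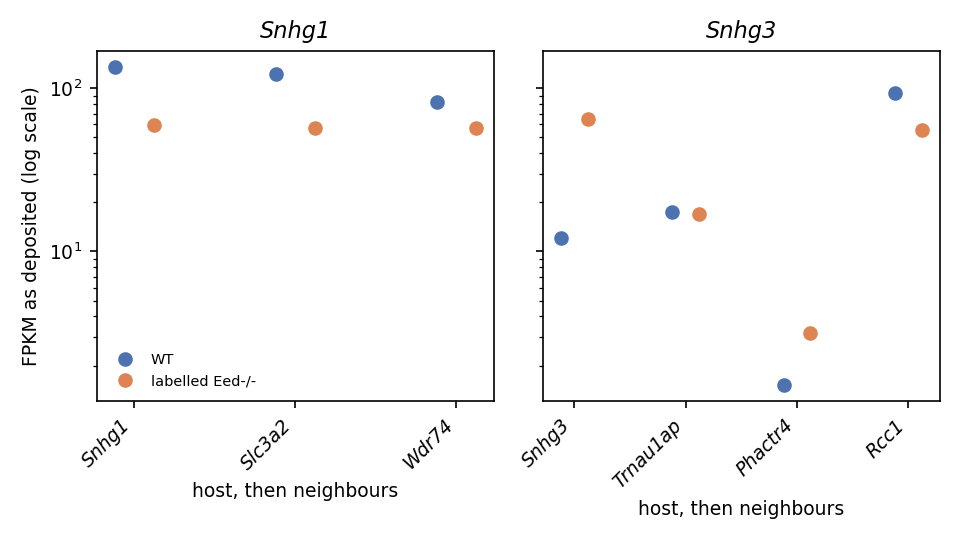
Deposited FPKM (log scale) of Snhg1 and Snhg3 and of their nearest and overlapping protein-coding genes in the WT library and the library labelled Eed-/-. Slc3a2 beside Snhg1 is lower in the same library as Snhg1, and Rcc1 is lower where Snhg3 is higher.

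None of the 8 neighbours tested beside nuclear-retained RNAs passed 2-fold. Frmd8, the coding gene next to Neat1, had a change of -0.58, opposite in sign to Neat1 and Malat1. Morc2a, which starts 682 bases from Tug1 on the opposite strand, had a change of 0.00 against 0.49 for Tug1. Myc, the oncogene upstream of Pvt1, was at an FPKM of 13.1 (WT) against 9.08, a change of -0.36, the same sign as Pvt1. Dleu7 and Kcnrg beside Dleu2 had an FPKM under 1 in both libraries.

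The start sites of the hosts were then compared. Transcripts of translation genes and several snoRNA hosts begin with a C followed by pyrimidines, known as a terminal oligopyrimidine start. The RefSeq table (GRCm38.p6) held start windows for 7 of the 9 members. The stretches below are Gas5, the second of its 2 listed starts (chr1:161035156-161035185, plus), Snhg1 (chr19:8723477-8723506, plus) and Snhg3 (chr4:132353667-132353696, minus), with the 20 transcribed bases in capitals after 10 bases of promoter.
Gas5: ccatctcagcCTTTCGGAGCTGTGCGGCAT
Snhg1: tcttgtcggcCTCATTTTTCCTTGTTCGGG
Snhg3: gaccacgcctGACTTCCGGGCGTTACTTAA
The hosts that were lower, Gas5 and Snhg1, have a listed start at CT, and Snhg3 does not. The first Gas5 start and the starts of Malat1, Tug1, Miat and Dleu2 do not begin with CT either, and 5.41% of all 32851 windows do. Only the letters CT were compared and not the length of the pyrimidine stretch, which in Snhg1 is CTC before an A. With 3 hosts this is a description only.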

How the data were processed

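Per the labels and the study's methods, strand-specific libraries were built from ribosome-depleted total RNA and selected by fragment size. After TopHat mapping to mm9, the authors deposited FPKM from Cufflinks as 24525 lines of symbol and value. The submitters' processing notes name TopHat2 2.0.11 and Cufflinks 2.2.1. The methods name another TopHat version, and the annotation is not given in the sources used here.

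The 268 repeated symbols were summed, both libraries were quantile-normalized, and changes were differences in log2(FPKM + 1). The filter was a normalized mean FPKM of 0.1 or more, with 2-fold as the size rule and no test, since each genotype has 1 library. The members and gene lists were chosen with earlier results of these data known. Genes named are the members, Eed, the nearest coding gene on each side, the hosted snoRNAs and, from each list, genes past 2-fold and the 2 most abundant, of which some are given only as counts and some are not reported here. Zbtb37 and Rcc1, which overlap members, were added after their values were seen. Positions came from GENCODE vM1 on NCBIM37, and start windows from RefSeq on GRCm38.p6, without an entry for Neat1 or Pvt1.

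Depth was recovered from low values of genes with 1 transcript of at least 1000 bases, with 180 bases taken off each length. Of 772 such values in WT and 872 in the other library, 80.3% and 81.7% lay within 0.1 of a whole number, against 20% by chance. For genes of several transcripts the fragment number is approximate, and intervals are Poisson (Garwood) for levels and Clopper-Pearson for ratios, computed on the shortest transcript of at least 400 bases, which gives the widest. No member had a near-identical copy (95% identity over 80% of its length, minimap2). The computations were tested on simulated data. Tools were pysam 0.24.0, pandas 2.3.3, numpy 2.4.6, scipy 1.17.1 and matplotlib 3.10.9 under Python 3.11.15.

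Alternatives tried were unscaled FPKM, median-ratio scaling, pseudocounts of 0.1 and 0.01, other filters on low values, a 3-fold threshold, the highest value of a repeated symbol, small non-coding RNAs left out, and classes without Pvt1 and Dleu2. Changes relative to the chromosome and classes without Snhg3 or without Miat and Dleu2 were chosen after seeing the data. Samples of the other assays were not analysed here.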

Additional observations from a re-analysis of the deposited data

How the results depend on the processing

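Each of the 9 members kept its direction under its 7 alternatives, and 61 of 63 member values moved by less than their counting half-width. The exceptions were the FPKM as deposited, under which the change of Malat1 was 0.10 and that of Snhg1 -1.18, past 2-fold. The half-width is of the log2 ratio without the added 1, so on this scale it is wide for low members. It was 1.24 for Miat and 3.13 for Dleu2, against changes of 0.11 and 0.44, so the count says little of these 2 members. Snhg1 also passed 2-fold after median-ratio scaling, where it and the host median were at -1.02. Gas5 passed 2-fold in all versions but the one relative to its chromosome (-0.94), and Dleu2 passed it with pseudocounts of 0.1 and 0.01, where the change reached 1.39. The host median was -1.18 on the FPKM as deposited and -1.08 without Snhg3, whose removal leaves 2 hosts. The cause of the first shift was not tested. The difference between the medians ranged from 1.31 to 1.48, within the counting half-width of 1.77 of the full classes. In the planned version without Pvt1 and Dleu2 the difference was 1.34 and the half-width 0.31. That half-width leaves out the spread between members, so no class difference beyond error follows from it. On the FPKM as deposited the median of all genes was -0.09, and 36.2% of genes past 2-fold were higher in the library labelled Eed-/-, against 48.9% after quantile normalization. Genes at least 2-fold higher and lower numbered 1694 and 1778 with a pseudocount of 0.1 and 1914 and 1989 with 0.01, and 152 and 137 at the 3-fold threshold, since these settings widen or narrow what passes. No paired analysis was possible because each genotype has 1 RNA-seq library and no test was made. Miat and Dleu2, with few fragments, are limited by depth, and 1 library per genotype limits every value, since the spread between cultures is unknown.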
